A study of Mus musculus with 8 samples.

Results

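Genes of the cytosolic ribosomal proteins were compared between CD90+ and CD90- fibroblasts sorted from the colon of wild-type C57BL/6J mice. The rule took every transcript cluster of the array whose annotation names 1 gene with a symbol of the Rpl, Rps, Rplp or Rpsa type, left out symbols marked as pseudogenes, and kept the brightest cluster of a gene over the 8 arrays. It found 44 genes in 50 clusters, of 30702 genes with a cluster of their own. Of these, 42 were bright enough to be tested, among 17221 tested genes in all. RefSeq lists 89 mouse genes with such symbols. For 38 of them each cluster also names another gene, often a pseudogene of the same family, and 7 had no named cluster. These 45 genes were not analysed here as single genes, so the set leaves out many proteins of the ribosome.

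Both populations had been gated as Epcam-, CD45-, CD31- and gp38+, that is, without the epithelial, leukocyte and endothelial surface proteins and with podoplanin, and were then split by CD90, the surface glycoprotein coded by Thy1. Each population had 4 samples, with 1 array each: samples 13, 15, 17 and 19 were CD90- and samples 14, 16, 18 and 20 were CD90+. The animals were untreated as far as the labels say, and the labels do not give their age. The cells came from 4 mice, so some of the 8 samples must share a mouse, but no label ties a sample to a mouse. The tests treat the samples as independent. Their p-values reflect variation among these 8 samples, part of which may be technical. Values are the deposited log2 expression with mean ± SD (n = 4 per population), and differences are CD90+ minus CD90-. Brightness depends on the probes, so levels are compared between samples and not between genes. In bulk RNA, fewer cells of a type and less RNA per cell cannot be told apart.

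A ribosome joins a small subunit, which reads the messenger RNA, to a large subunit, which links amino acids and releases the growing chain through an exit tunnel. The Rps genes code for proteins of the small subunit and the Rpl genes for those of the large one, and both are transcribed strongly in nearly every cell. Many of their messenger RNAs begin with an uninterrupted stretch of pyrimidines, the terminal oligopyrimidine tract, through which growth signals that act on mTOR control their translation. Ribosomal protein genes have also left very many processed pseudogenes in the mouse genome, which carry nearly the same sequence as the parent messenger RNA.

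The bases around the annotated start site are shown for the 4 called genes with the highest difference between the populations and the 4 genes with the lowest, among those with a start site entry, because the pyrimidine tract is the sequence feature this family is known for. Each line gives 30 bases of the transcribed strand, 5′ to 3′, with the annotated first transcribed base at position 16. Capitals mark the part, within these bases, of a run of at least 8 uninterrupted C or T bases.
Rpl37a: ttccgctcgccggtctaaaaccgcgcatgc
Rpl31: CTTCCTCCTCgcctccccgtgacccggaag
Rps4x: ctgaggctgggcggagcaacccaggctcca
Rpl35: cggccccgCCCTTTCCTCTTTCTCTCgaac
Rpl27: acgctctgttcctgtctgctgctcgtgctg
Rpl10a: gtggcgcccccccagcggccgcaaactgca
Rps24: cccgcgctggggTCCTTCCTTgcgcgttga
Rpl7l1: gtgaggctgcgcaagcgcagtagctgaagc
The sequences are from RefSeq (GRCm38.p6). Those of Rps4x (chrX:102189377-102189406), Rpl35 (chr2:39005117-39005146) and Rpl7l1 (chr17:46782642-46782671) lie on the minus strand. Those of Rpl37a (chr1:72711245-72711274), Rpl31 (chr1:39367836-39367865), Rpl27 (chr11:101442230-101442259), Rpl10a (chr17:28328456-28328485) and Rps24 (chr14:24490663-24490692) lie on the plus strand. The first 4 genes were called higher in CD90+ samples, and the last 4 had lower means there without passing the test. In Rpl35 and Rps24 the run spans the start, in Rpl31 it ends upstream of it, and the run of Rpl37a, of 13 bases, lies outside the bases shown. Of the 42 tested genes 33 had a start site entry, and 20 of these (60.6%) had such a run that overlapped the 25 bases on either side of the start, against 27.1% of 27025 genes with an entry. The share was 5 of 8 among the genes called higher and 15 of 25 among those not called. The letters CCGGAAG, part of the site of ETS factors, were searched on both strands of the 300 bases from 250 before to 50 after the start. They were found for 16 of the 33 genes (48.5%) and for 9.93% of all genes with an entry, with 4 of 8 among genes called higher and 12 of 25 among those not called. A match describes these letters and is not a bound site.

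Thy1 was at 5.52 ± 0.046 in CD90- and 7.69 ± 0.47 in CD90+ samples and did not overlap between them (p = 0.0286 in a two-sided exact permutation test, where no smaller p can be reached with 4 against 4). Pdpn was at 13.17 ± 0.2 and 13.2 ± 0.22 (exact permutation test, p = 0.8). Over the arrays, the median transcript cluster was at 5.3 to 5.41, under the median of the negative control probe sets at 6.58 to 6.84. The highest deposited value was 19.8983. Since a 16-bit scan ends at 16, the scale was changed after scanning, and folds given here hold for the deposited scale.

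A minority of the ribosomal protein genes passed the test, each with a higher level in CD90+ fibroblasts and a small difference. Of the 42 tested genes, 10 were called higher and 0 lower (limma, adjusted p under 0.05 over all 17221 genes); at the same threshold 14.0% of all genes tested were called higher and 15.7% lower. The members called made up 23.8% of those tested. Their median difference was 0.15, where the median of all genes tested was -0.014, and 31 of 42 had a higher mean in CD90+ samples, as had 47.8% of all genes tested. The 10 called genes rose by 0.19 to 0.32, which is a factor of 1.14 to 1.25. Values of the populations did not overlap for 15 genes, each time with CD90+ above; this was so for 14.9% of all genes tested. The share called higher lay between that of all genes and that of bright genes. Among the 498 tested genes with a mean of at least 14, 28.9% were called higher and 13.3% lower, their median difference was 0.11, and 61.8% had a higher CD90+ mean. Of the 11 ribosomal protein genes in this range, 4 were called higher and 0 lower, with a median of 0.18.

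Several calls of single genes were lost when 1 sample was left out. Leaving out 1 sample at a time gave 4 to 8 genes called higher. Without sample 15 or sample 20 it was 4 (9.52% of the members, beside 12.1% and 10.9% of all genes tested). Without sample 13 or sample 14 it was 5 (11.9%, beside 13.6% and 13.5%). Without sample 19 it was 6 (14.3%, beside 11.6%). Without sample 16 it was 7 (16.7%, beside 12.0%), and without sample 17 or sample 18 it was 8 (19.0%, beside 12.3% and 11.4%). With no filter on dim clusters it was 5 of 44 (11.4%), beside 8.04% of all genes. After repeating the quantile normalization it was 6 (14.3%, beside 13.5%). Centring the arrays on the median of the bright genes left 3 genes called higher (7.14%, beside 10.8% of all genes) and 1, Rps24, called lower. Centring them on the median of all tested genes gave 16 and 0 (38.1% higher, beside 15.6%). The share of higher among all calls was 47.2% as reported, 29.97% with the first centring and 53.1% with the second. Cyclic loess gave 15 genes called higher (35.7%, beside 15.5%) and array weights 14 (33.3%, beside 18.2%). The plot of the share called by setting shows these counts beside those of all genes.

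**Figure D1:**
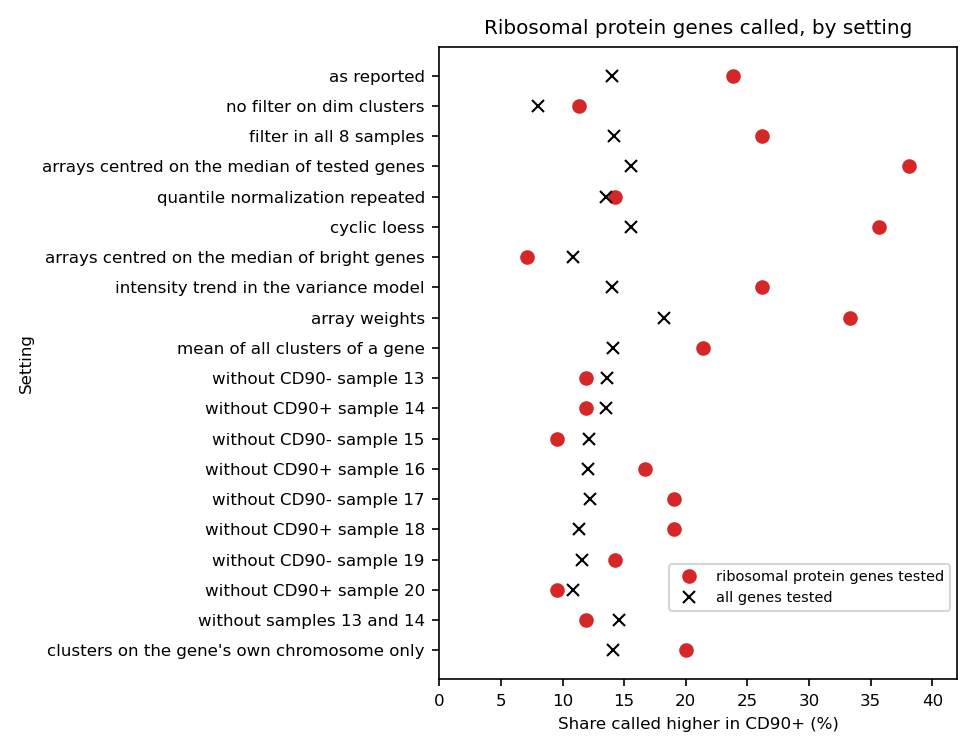
Share of tested ribosomal protein genes (red points) and of all tested genes (crosses) that were called higher in CD90+ samples (x axis, %) under each setting (y axis). The red point stands at 23.8% in the analysis as reported, between 9.52% and 19.0% when 1 sample was left out, and at 7.14% when arrays were centred on the bright genes.

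4 genes kept their call whichever single sample was left out: Rps20, Rpl37a, Rps4x and Rplp0. Rps20, a protein of the head of the small subunit, was at 8.34, 8.4, 8.42 and 8.33 in CD90- samples 13, 15, 17 and 19 and at 8.72, 8.68, 8.69 and 8.67 in CD90+ samples 14, 16, 18 and 20. The 2 sets of values lay clearly apart, with an SD of 0.046 and 0.021. The difference was 0.32 ± 0.054 (SE; limma adjusted p = 0.00246). Rps20 was called in each of the 20 fits run, with differences from 0.23 to 0.38 and limma adjusted p up to 0.0146, and was the only one of the family for which this held.

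Rpl37a, a zinc-binding protein of the large subunit, was at 15.95, 15.91, 16.06 and 15.99 in the CD90- samples and at 16.23, 16.2, 16.29 and 16.4 in the CD90+ samples. No CD90- value reached the lowest CD90+ value. The difference was 0.30 ± 0.067 (SE; limma adjusted p = 0.0096), and it missed the threshold after the quantile normalization was repeated (difference 0.22, limma adjusted p = 0.0705). Rps4x, the X-linked gene of a small subunit protein, was at 14.11, 14.10, 14.13 and 14.09 in the CD90- samples and at 14.47, 14.3, 14.33 and 14.42 in the CD90+ samples. The CD90- values were nearly equal (SD 0.02) and all lay under the CD90+ ones. The difference was 0.27 ± 0.061 (SE; limma adjusted p = 0.00964). After the repeated quantile normalization its difference was 0.31, with a limma adjusted p of 0.257.

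Rplp0, which anchors the stalk that recruits elongation factors, was at 12.4, 12.53, 12.51 and 12.51 in the CD90- samples and at 12.74, 12.67, 12.78 and 12.81 in the CD90+ samples. The populations did not overlap. The difference was 0.26 ± 0.061 (SE; limma adjusted p = 0.0118), and it was not called under the repeated quantile normalization or the centring on bright genes (differences 0.24 and 0.17, limma adjusted p = 0.164 and 0.0535). Rpl12, which binds at the base of the same stalk, was at 13.14 ± 0.13 and 13.37 ± 0.082. Its populations overlapped and it did not pass (difference 0.23, limma adjusted p = 0.0624), but it passed when arrays were centred on all tested genes, under cyclic loess, with array weights and without sample 17.

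**Figure D2:**
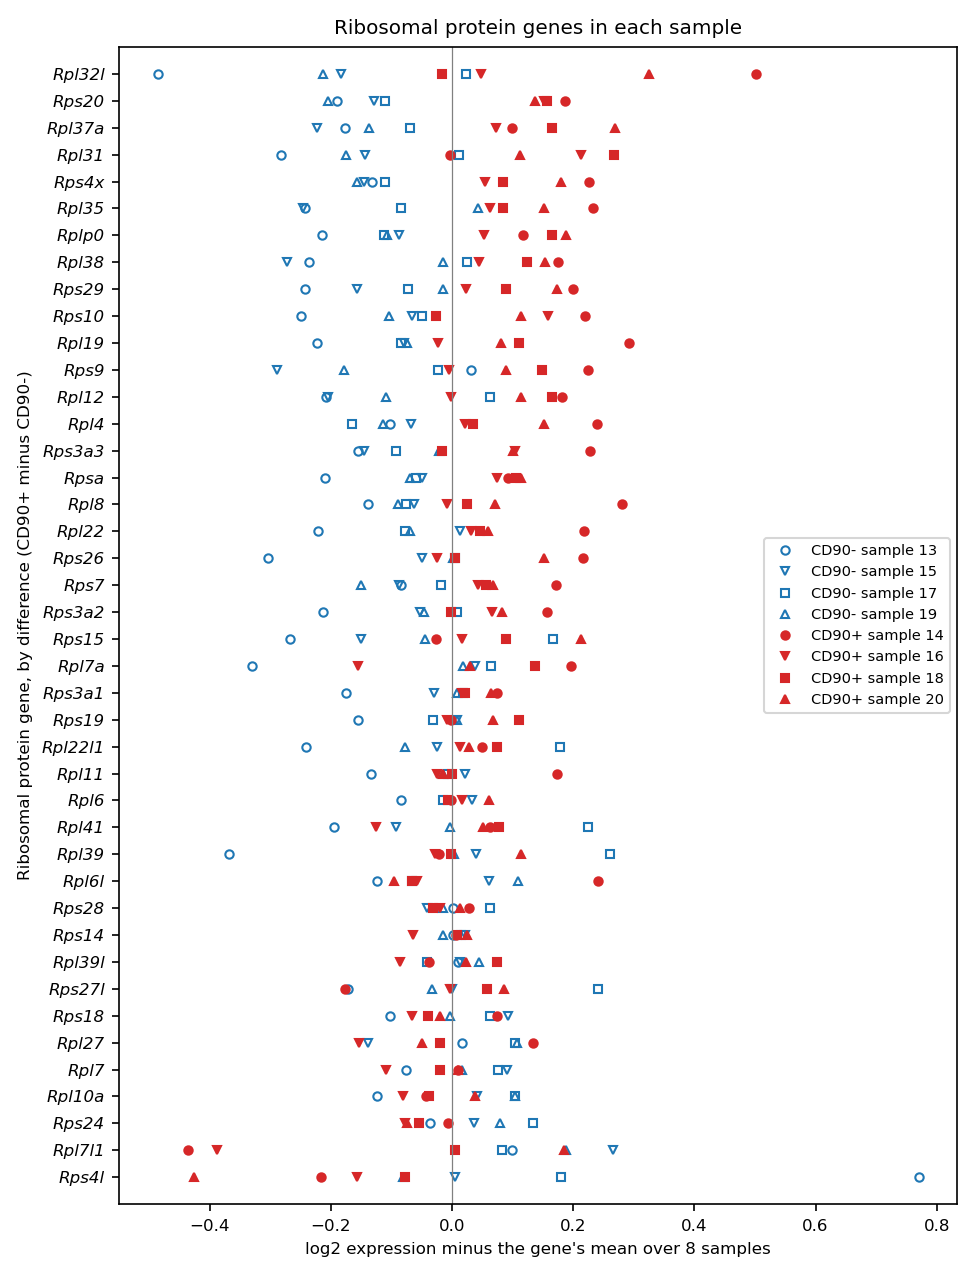
Log2 expression of the 42 tested ribosomal protein genes in each of the 8 samples, minus the gene's mean over the samples (x axis), with genes ordered by their difference (y axis); open blue symbols are CD90- and filled red symbols CD90+ samples. Rps20, Rpl37a, Rps4x and Rplp0 show every CD90+ sample to the right of every CD90- sample, and at the bottom sample 13 stands apart for Rps4l.

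The other 6 called genes lost their call without 1 sample or another. 3 of them code for proteins along the exit tunnel. Rpl4, whose long loop lines the tunnel, was at 16.57, 16.61, 16.51 and 16.56 in CD90- samples and at 16.92, 16.7, 16.71 and 16.83 in CD90+ samples. The populations did not overlap, and samples 14 and 20 were the highest. The difference was 0.22 ± 0.068 (SE; limma adjusted p = 0.0367), and the adjusted p rose to 0.0957 without sample 20. It was also lost without sample 13, 14, 15, 17 or 19.

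Rpl31 and Rpl35 sit at the rim of the tunnel. Rpl31 was at 9.5, 9.64, 9.79 and 9.61 in the CD90- samples and at 9.78, 10, 10.05 and 9.9 in the CD90+ samples. CD90+ sample 14 lay below CD90- sample 17, so the populations overlapped. The difference was 0.29 ± 0.087 (SE; limma adjusted p = 0.0325); without sample 18 the adjusted p was 0.0869, and the call was also lost without sample 13, 15, 16, 19 or 20. Rpl35 was at 15.49, 15.49, 15.65 and 15.78 in CD90- and 15.97, 15.8, 15.82 and 15.89 in CD90+ samples, which met within 0.02 of each other at samples 19 and 16. The difference was 0.27 ± 0.083 (SE; limma adjusted p = 0.0413), and the call was kept in the fit without sample 19 but lost without any other sample (adjusted p up to 0.0968, without sample 15).

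The remaining 3 belong to the small subunit. Rps29, a small zinc-binding protein, was at 12.35 ± 0.099 and 12.59 ± 0.08 (difference 0.24, limma adjusted p = 0.0351), and Rps10 at 8.68 ± 0.091 and 8.91 ± 0.10 (difference 0.23, limma adjusted p = 0.0485). Mutations in both genes are known from Diamond-Blackfan anaemia. Rpsa, which is also known as a laminin receptor, was at 10.58 ± 0.075 and 10.77 ± 0.018 (difference 0.19, limma adjusted p = 0.0384). Populations did not overlap for any of the 3. Rpsa lost its call without any 1 of the 8 samples (adjusted p 0.0504 to 0.0948). Rps29 lost it without sample 13, 14, 15, 17, 18 or 20 (up to 0.093) and Rps10 without sample 13, 14, 15, 16, 17, 19 or 20 (up to 0.105).

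Several genes came close to the threshold without passing it. The highest difference of the family, 0.43, belonged to Rpl32l, a relative of Rpl32, at 11 ± 0.21 and 11.43 ± 0.24. Its values ran from 10.73 to 11.24 in CD90- and from 11.2 to 11.72 in CD90+ samples, so they overlapped (limma adjusted p = 0.0511), and it was called without sample 17, without sample 18 and under 5 further settings. Rpl38 is studied as a selective subunit, because its loss in mice changes the translation of Hox messenger RNAs. It was at 11.04, 11, 11.3 and 11.26 in CD90- samples and at 11.45, 11.32, 11.4 and 11.43 in CD90+ samples. CD90- samples 17 and 19 lay close under the CD90+ ones (difference 0.25, limma adjusted p = 0.0541). Of the other genes studied in this way, Rps26 was at 13.86 ± 0.15 and 14.03 ± 0.12 (limma adjusted p = 0.198) and Rpl10a at 8.17 ± 0.11 and 8.11 ± 0.05 (limma adjusted p = 0.552).

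**Figure D3:**
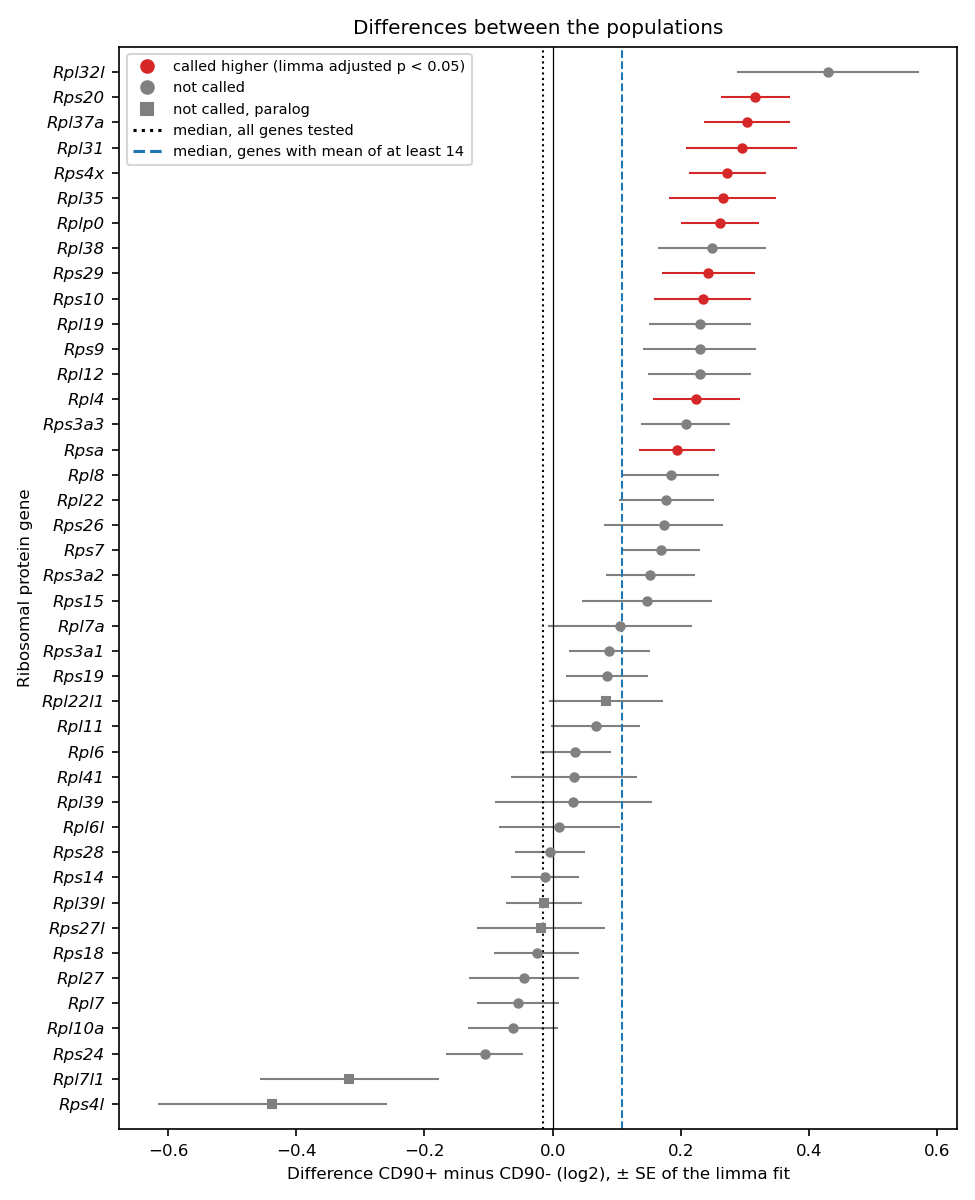
Difference CD90+ minus CD90- (x axis, log2, with the SE of the fit) for each tested ribosomal protein gene (y axis); red marks the 10 genes called higher, grey the others and squares the paralogs. Most points lie between 0 and 0.32, the dashed line at 0.11 is the median of genes with a mean of at least 14, and the dotted line at -0.014 is the median of all tested genes.

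Both subunits held genes called higher, and neither held one called lower. Over all genes tested 14.0% were called higher and 15.7% lower. Of 23 tested large subunit genes 5 (21.7%) were called higher and 0 lower (median difference 0.10), and of 19 small subunit genes 5 (26.3%) and 0 (median 0.15). Of 11 tested Diamond-Blackfan genes 4 (36.4%) were called higher and 0 lower, with a median of 0.17. Leaving out 1 sample gave 0 to 2, and 1 was called without samples 13 and 14. Of 6 tested genes along the exit tunnel 3 (50%) were called higher and 0 lower (median 0.23), again with 0 to 2 when 1 sample was left out. Other scalings of the arrays gave 0 to 4 called higher along the tunnel and 0 to 5 among Diamond-Blackfan genes. Rpl31 and Rpl35, called on both lists, were measured by clusters on another chromosome. On its own chromosome Rpl35 was not called (difference 0.16, limma adjusted p = 0.129), and Rpl31 had no cluster there. Rpl11, which with Rpl5 and the 5S ribosomal RNA can bind the p53 regulator Mdm2, was at 7.62 ± 0.068 and 7.69 ± 0.094 (limma adjusted p = 0.516). The steadiest genes over the 8 samples were Rps14, Rps28 and Rpl6, with an SD of 0.029, 0.034 and 0.042. Rps14 was at 6.99 ± 0.016 and 6.97 ± 0.04, little above the negative controls, and Rps28 at 7.33 ± 0.044 and 7.33 ± 0.028. The brightest cluster belonged to Rpl41, which codes for the shortest ribosomal protein, at 18.4 ± 0.18 and 18.43 ± 0.095 (limma adjusted p = 0.834). At this brightness the array may record differences in compressed form, which was not tested.

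The paralogs on a chosen list, some of which stand in for a standard subunit in some tissues, were not called. Of 7 measured, 5 were tested, 0 were called in either direction (1 had an unadjusted limma p under 0.05), and the median difference was -0.018. It ran from -0.11 to 0.0083 over the scaling alternatives, so it has no settled sign. Rps4l, an autosomal relative of Rps4x, had the lowest difference of all, -0.44 (limma adjusted p = 0.101). It was at 7.28, 6.51, 6.69 and 6.43 in CD90- samples and at 6.29, 6.35, 6.43 and 6.08 in CD90+ samples. Sample 13 alone stood above 7, and both means were below the negative controls. Rpl7l1, a relative of Rpl7, followed at -0.32 (limma adjusted p = 0.125), with 9.33, 9.5, 9.31 and 9.42 in CD90- samples and 8.79, 8.84, 9.24 and 9.41 in CD90+ samples. CD90+ samples 14 and 16 were low while samples 18 and 20 lay near or within the CD90- range. Without sample 20 it was called lower (limma adjusted p = 0.0359).

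Rpl22l1 was at 12.84 ± 0.17 and 12.92 ± 0.027, and its standard partner Rpl22, which binds at the tunnel rim, at 8.88 ± 0.097 and 9.06 ± 0.086 (limma adjusted p = 0.527 and 0.105). Rps27l, a target of p53, was at 10.99 ± 0.17 and 10.98 ± 0.12. Rpl39l, known from testis, was at 5.47 ± 0.035 and 5.46 ± 0.07, below the negative controls, and Rpl39 at 8.67 ± 0.26 and 8.71 ± 0.066. Rpl7 was at 9.65 ± 0.076 and 9.6 ± 0.056. The genes not tested were Rpl10l, a testis paralog of Rpl10, at 3.88 ± 0.21 and 3.82 ± 0.15, and Rpl3l, a striated muscle paralog of Rpl3, at 4.44 ± 0.036 and 4.45 ± 0.11. Neither reached the minimum of 5.36 set for a test.

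For part of the family the brightest cluster was not at the gene itself. The cluster identifiers carry a chromosome, which matched the RefSeq chromosome for 99.7% of 31058 named clusters. For 6 of the 44 genes, Rpl7a, Rpl12, Rpl27, Rpl31, Rpl35 and Rpl41, the cluster with the highest mean lay on another chromosome. 5 genes had more than 1 cluster. For Rpl35 the difference was 0.27 in the cluster elsewhere and 0.16 in the one on its own chromosome, which had 13.31 ± 0.11 and 13.47 ± 0.056. For Rpl7a the differences were 0.10 and 0.069, for Rpl41 0.033 and 0.053, and for Rpl27 -0.045 and -0.042. With clusters on the gene's own chromosome only, a setting chosen after seeing the data, 8 of 40 tested genes were called higher and 0 lower, where 14.1% of all genes tested were called higher. Rpl35 lost its call there, and Rpl31 and Rpl12 had no cluster left. 3 members, Rps3a2, Rps3a3 and Rpl6l, are listed as pseudogenes by RefSeq, and Rps4l as a transcribed pseudogene. Rps3a2 was at 16.99 ± 0.095 and 17.14 ± 0.065 (limma adjusted p = 0.135), and 0 of the 3 were called, although 1, Rps3a3, had an unadjusted limma p under 0.05. Probes of such clusters can bind transcripts of the parent gene, so values of single members are uncertain.

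The differences were uneven over the samples. Sample 13 was the lowest of the 8 samples for 25 of the 42 genes, and sample 14 the highest for 22. The median deviation from the genes' means was -0.17 in sample 13, -0.051 in sample 15, 0.0065 in sample 17 and -0.019 in sample 19. In the CD90+ samples it was 0.13 in sample 14, -0.0023 in sample 16, 0.041 in sample 18 and 0.081 in sample 20. CD90- sample 17 thus stood above CD90+ sample 16. Without samples 13 and 14, 5 of 42 genes were called higher and 0 lower, where 14.6% of all genes tested were called higher, and the median difference was 0.071. The deviation of all bright genes moved alongside, from -0.087 in sample 13 to 0.13 in sample 14, while that of all tested genes stayed between -0.036 and 0.029. The part of array brightness in the result was not tested further.

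**Figure D4:**
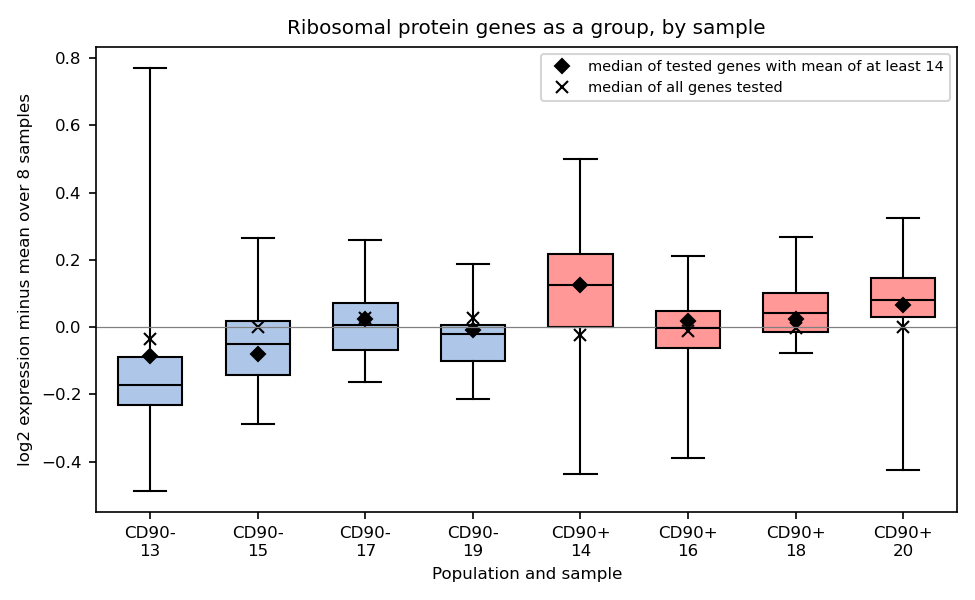
Log2 expression of the 42 tested ribosomal protein genes minus each gene's mean over 8 samples (y axis), as boxes from the first to the third quartile with the median as a line and whiskers to the lowest and highest gene, for each sample (x axis); diamonds give the median of tested genes with a mean of at least 14 and crosses that of all tested genes. The median line is lowest in sample 13, at -0.17, and highest in sample 14, at 0.13.

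For translation factors and the lists that follow, the shares over all genes tested were 14.0% higher and 15.7% lower. Of 18 tested translation factors and related genes whose messenger RNAs carry the same tract, 3 (16.7%) were called higher and 1 (5.56%) lower, with a median of 0.095 that stayed above 0 under each scaling alternative (0.0061 to 0.14). Tpt1, an abundant tract-bearing transcript, rose from 8.46 ± 0.092 to 8.89 ± 0.019 and Pabpc1, the poly(A)-binding protein gene, from 13.4 ± 0.033 to 13.68 ± 0.058 (limma adjusted p = 0.00103 and 0.00604). Eif3h, a subunit of an initiation factor, fell by 0.35 (limma adjusted p = 0.0219). Of 21 further initiation factors 1 (4.76%) was called higher and 2 (9.52%) lower (median -0.14). Eif2b5 and Eif3d fell by 0.34 and 0.29, and Eif4a1, a helicase, rose by 0.19. Eif4a1 lost its call whichever of the 8 samples was left out, Eif3h without sample 16, 17, 18, 19 or 20, and Eif3d without sample 15, 17, 18, 19 or 20.

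Genes that build ribosomes had lower medians, as had those of other large complexes. Of 47 tested nucleolar assembly genes 1 was called higher and 8 (17.0%) lower, with a median of -0.15. Fbl, the methyltransferase fibrillarin, fell from 11.51 ± 0.061 to 11.19 ± 0.024 and Imp3 from 7.2 ± 0.10 to 6.69 ± 0.15, while Nop58, a partner of fibrillarin, rose from 12.93 ± 0.07 to 13.64 ± 0.28. Of 24 genes of RNA polymerases I and III and their factors 0 were called higher and 4 (16.7%) lower (median -0.08), among them Rrn3, an initiation factor of polymerase I, by 0.31. Of 72 mitochondrial ribosomal protein genes, which serve a separate ribosome, 2 were called higher and 10 (13.9%) lower (median -0.11). Mrpl13 rose by 0.36 and Mrpl52 fell by 0.47. Of 36 proteasome genes 0 were called higher and 13 (36.1%) lower (median -0.22), among them Psmd14, by 0.44, and Psmc6, by 0.39. The counts of lower calls varied with the scaling of the arrays: they ran from 5 to 21 for assembly, 3 to 9 for the polymerases, 7 to 22 for mitochondrial ribosomal proteins, 9 to 24 for the proteasome and 1 to 9 for the further initiation factors. Leaving out 1 sample gave 3 to 12 assembly genes, 4 to 12 mitochondrial ribosomal protein genes and 9 to 16 proteasome genes called lower. The medians of these 4 lists stayed below 0 under each scaling alternative, and whether the lists differ from the ribosomal protein genes was not tested.

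**Figure D5:**
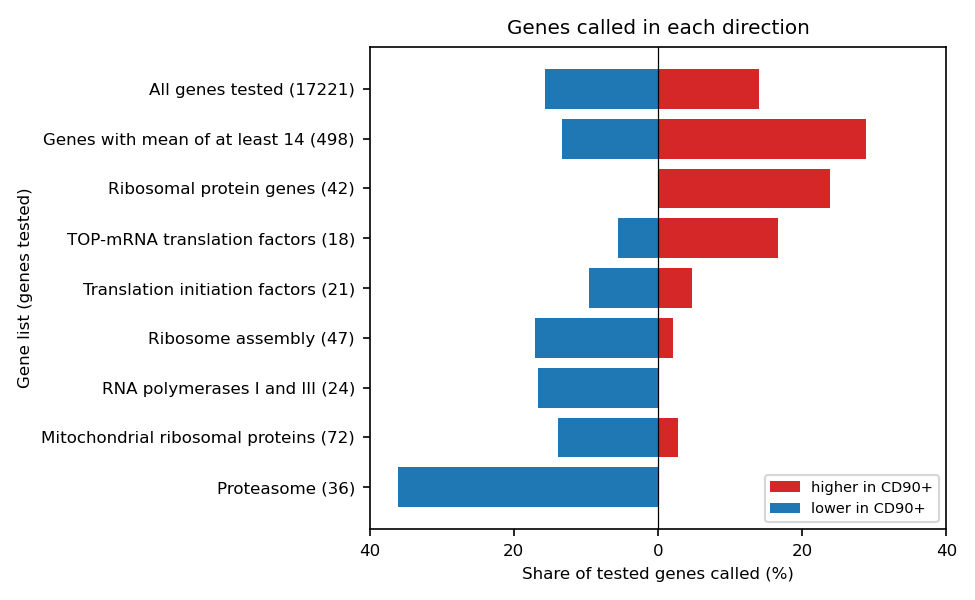
Share of the tested genes of each list (y axis, with the number tested) that were called higher (red, to the right) or lower (blue, to the left) in CD90+ samples (x axis, %). Ribosomal protein genes were called at 23.8% higher and 0 lower, and the proteasome list at 0 higher and 36.1% lower. Genes with a mean of at least 14 were called at 28.9% higher and 13.3% lower. Of the 42 ribosomal protein genes 11 were in that range, of which 36.4% were called higher and 0 lower.

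Of 23 tested regulators of ribosomal protein synthesis 5 (21.7%) were called higher and 3 (13.0%) lower, beside 14.0% and 15.7% of all genes. The list's median difference was -0.07 (-0.16 to -0.019 over the scaling alternatives), and 9 of the 23 had a higher CD90+ mean. The 3 with the smallest p, named below, all rose. Lower calls ran from 1 to 6 over the scalings, while 5 were called higher under each. Eef2k, the kinase that slows elongation, rose from 7.13 ± 0.04 to 8.03 ± 0.073, Pdcd4, an inhibitor of the helicase Eif4a1, from 11.99 ± 0.2 to 12.83 ± 0.18, and Mlst8, a subunit of mTOR complexes, from 7.94 ± 0.062 to 8.39 ± 0.10 (limma adjusted p = 1.18e-05, 0.00103 and 0.00162). Of 12 genes of ribosome stress and quality control 2 (16.7%) were called higher and 1 (8.33%) lower, with 1 to 6 lower over the scalings. The median difference of these 12 was -0.11, and 3 of them had a higher CD90+ mean. Map3k20, a kinase that senses stalled ribosomes, fell from 11.42 ± 0.19 to 10.09 ± 0.11, and the p53 targets Cdkn1a and Ccng1 rose by 1.44 and 0.60. Rps27l, also a target of p53, was not called (difference -0.018, limma adjusted p = 0.914).

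Markers of growth and of other cells also differed between the populations, and their part in the ribosomal protein result was not tested. Of 8 tested proliferation genes 5 were called lower and 0 higher; the list's mean lay between 7.58 and 8.02 in CD90- and between 7.08 and 7.4 in CD90+ samples. All 8 tested enteric glia genes were called higher, with list means of 5.91 to 6.28, below the negative controls, and 7.54 to 8.71. The means of Gfap and Foxd3 were below the controls in CD90+ samples too, at 6.27 and 5.84. Cdh19 and Kcna1 rose the most, by 5.16 and 5.18. Of 5 tested leukocyte genes 3 were called higher, at list means of 5.54 to 5.8 and 5.83 to 6.45, below the negative controls, and 1 to 4 were called when 1 sample was left out; the leukocyte gene Ptprc was too dim to be tested. Of 7 endothelial genes 1 was called higher and 2 lower, and of 10 epithelial genes 0 in either direction. The epithelial mean ran from 7.67 to 9.58 in CD90- and from 8.01 to 9.69 in CD90+ samples, with sample 13 the highest of the CD90- and sample 20 the highest of the CD90+ samples. Of 8 smooth muscle genes 4 were called higher and 3 lower. Acta2 fell by 2.13, Tagln fell by 2.31 and Cnn1 rose by 1.77. The list's mean was 9.99 in sample 13, against 9.27 to 9.55 in the other CD90- samples, and 10.49 in sample 14, against 9.20 to 9.27 in the other CD90+ samples. These are the samples that were most often the lowest and the highest for ribosomal protein genes. Fibroblast genes were bright in all samples, at list means of 15.06 to 15.41, and of 7 tested 2 were called higher and 1 lower. Col1a2 fell by 0.72, while Dcn and Lum rose by 0.75 and 0.69, which are larger differences than those of the called ribosomal protein genes.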

How the data were processed

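Fibroblast RNA of 8 samples was measured on 8 Affymetrix arrays, from 2 ng of amplified RNA per the labels' protocols. The authors deposited log2 values, made with Affymetrix Expression Console 1.1 and RMA per the submitters' processing notes; settings and genome build are not given in the sources used here. RMA as usually run quantile-normalizes arrays, which would hide a shift shared by most genes. The file held 72688 rows, of which 65956 were transcript clusters; annotation named 1 gene for 31258, several for 1492 and none for 33206, with symbols updated through RefSeq (GRCm38.p6). A cluster was kept where 4 or more of the 8 samples reached 5.36 (the median over all clusters and samples), and a gene was represented by its brightest cluster. The test was that of limma 3.58.1 in R 4.3.3 (functions lmFit and eBayes), two-sided, without a block, with Benjamini-Hochberg adjustment at 0.05. The members and lists were chosen with earlier results of these data known. Genes named were the called members, the 3 brightest and dimmest, the 3 with the largest and smallest SD, paralogs with partners, stalk, 5S and selective subunits, Rpsa, and the 3 smallest p per other list; others were chosen after their values were seen. The fitting script was tested on simulated data with known changes. It recovered 1.41% of 71 changes of 0.25 log2, 48.4% of 64 changes of 0.5 and 83.1% of 65 changes of 1. Far fewer genes were changed there than were called in the data, so the adjusted threshold was not the same. A gene not called here can still differ by an amount as small as those of the called members. Alternatives changed the filter, normalization, variance model, cluster choice and samples. The number of arrays limits the precision. Python 3.11.15, pandas 2.3.3 and matplotlib 3.10.9 prepared tables and figures.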

Additional observations from a re-analysis of the deposited data

Results flagged for a closer look

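In 7 of the 84 groups of 4 samples checked (42 genes in 2 populations), 1 sample stood far from the other 3. Chance flags about 1 in 20 groups. The genes of a population were read on the same 4 arrays, so the groups are not independent. The count was not compared with chance in a test. CD90- sample 13 was low for Rpl19, at 10.91 against 11.04 to 11.05 in the other CD90- samples, for Rpsa, at 10.47 against 10.61 to 10.63, and for Rpl7a, at 14.13 against 14.48 to 14.53. CD90+ sample 14 was high for Rpl22, at 9.19 against at most 9.03 in the other CD90+ samples, for Rpl11, at 7.83 against 7.63 to 7.66, and for Rpl6l, at 13.97 against 13.63 to 13.67. CD90+ sample 16 was low for Rpl41, at 18.29 against 18.47 to 18.49. Samples 13 and 14 were thus the ones set apart in 6 of the 7 cases. No cause was tested.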

How the results depend on the processing

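Against 10 ribosomal protein genes called higher as reported, limma called 5 without a filter on dim clusters. That was 11.4% of 44 members, beside 8.04% of all genes. After repeating the quantile normalization it called 6, 4 of them among the 10 (14.3% of the members beside 13.5% of all genes). It called 16 with arrays centred on all tested genes, 15 under cyclic loess and 14 with array weights. These were 38.1%, 35.7% and 33.3% of the members, beside 15.6%, 15.5% and 18.2% of all genes. With the filter in all 8 samples it called 11 (26.2% of the members, beside 14.2% of all genes). With an intensity trend in the variance model it also called 11 (26.2%, beside 14.0%). The mean of all clusters of a gene gave 9 (21.4%, beside 14.1%). It called 3 with arrays centred on bright genes (7.14%, beside 10.8%) and 5 without samples 13 and 14 (11.9%, beside 14.6%). Leaving out 1 sample gave 4 to 8. Against 0 called lower, 1 was called with arrays centred on bright genes and 1 with array weights, each time Rps24; leaving out 1 sample gave 0 to 1, the 1 being Rpl7l1 without sample 20. Centring on bright genes moved the median of all genes from -0.014 to -0.10 and the share of higher among all calls from 47.2% to 29.97%. The median difference of the members was 0.15 as reported and stayed above 0 under each setting run. It fell to 0.061 with arrays centred on bright genes and 0.071 without samples 13 and 14, and leaving out 1 sample gave 0.092 (without sample 13) to 0.18. The shifts with bright-gene centring, without sample 13 and without samples 13 and 14 exceeded the smaller SD of the samples' median deviations (0.079 in CD90- and 0.055 in CD90+ samples), and those under the other settings did not. Of the 549 values of single named genes under alternatives, 433 kept direction and side of the threshold, 67 lost a call, 17 gained one and 32 without a call changed sign; 0 called values reversed. Beyond the fewer samples or genes in some fits, the cause was not tested. The number of arrays limits the precision for differences this small. No paired analysis was possible because the populations share no sample numbers and no label ties samples to mice.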

Other observations

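Most clusters that carry ribosomal protein sequence outside the 44 genes also had a higher mean in CD90+ samples, tested over 33402 clusters. Of 51 tested clusters that name a ribosomal protein gene together with others, 7 (13.7%) were called higher and 0 lower (limma, median difference 0.11). This share called higher was near the 11.9% of all clusters tested. A higher CD90+ mean was found for 44 of the 51, and for 16015 of all 33402 clusters tested. Of 201 tested clusters that name 1 ribosomal protein pseudogene, 65 (32.3%) were called higher and 0 lower, with a median of 0.22 and a range of -0.15 to 0.61, where 11.9% of all clusters tested were called higher and 13.9% lower. These clusters can share probes' targets with the parent genes, so they are not independent of the values above, and whether the signal came from pseudogenes or from their parents was not tested.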
